A study of Mus musculus with 4 samples.

Results

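Toll-like receptors are membrane proteins that recognise microbial lipids, proteins and nucleic acids, and some products of damaged cells. The genes described here are 10 symbols, chosen by name out of the 23235 listed in each table: the receptors Tlr1, Tlr2, Tlr3, Tlr4 and Tlr6, the lipopolysaccharide co-receptors Cd14 and Ly96, the adaptors Myd88 and Ticam1, and the kinase Irak1. All 10 were found. Of these, 8 had a mean of 1 FPKM or more over the libraries (FPKM, fragments per kilobase of transcript, relative to the mapped fragments of the library), and Tlr1 and Tlr6 did not. Tlr3 reached that mean only through the library in which it was highest.

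RNA was sequenced from primary mouse embryonic fibroblasts of the C57BL/6 strain, cells grown directly from minced embryos, with 1 library for each of 4 genotypes. The labels give these as wild type, Gadd45-/- (Gadd45a-/- in the design text), G3 Terc-/- and G3 Gadd45-/-Terc-/- (dKO), here called G3 dKO. Terc encodes the RNA template of telomerase, and mice bred without it lose telomere repeats from one generation to the next; G3 denotes generation 3. The labels give no embryo age, passage, number of embryos per culture or treatment. The design asks what loss of Gadd45a goes with when telomerase RNA is present and when it is absent. With a single library per genotype, every difference below is one between 2 cultures, without a test or a replicate check.

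Estimated depth was similar, at 19200000 to 19800000 fragments per library. The targeted gene went against its label: Gadd45a stood at 22.9 FPKM in the wild-type library, 33.9 in the library labelled Gadd45-/-, 31.4 in the library labelled G3 Terc-/- and 45.1 in the library labelled G3 dKO. Genotypes are therefore given as labelled. Terc was listed at 0.530, 0.259, 0 and 0 FPKM in the same order. All of these lie below 1 FPKM and say little about the Terc genotype. Y-linked transcripts were found in the library labelled Gadd45-/- alone (Ddx3y at 16.4 FPKM against 0.0229 or less elsewhere), so its sex and its genotype cannot be told apart. All 12 fibroblast markers examined exceeded 1 FPKM in every library.

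The receptors divide the labour by ligand and by place in the cell. TLR2 works at the cell surface as a dimer with TLR1 or TLR6 and binds bacterial lipopeptides, while TLR4 binds lipopolysaccharide through the small protein MD-2, the product of Ly96, after CD14 has delivered the lipid. TLR3 binds double-stranded RNA inside endosomes. MyD88 links all of these receptors except TLR3 to the kinase IRAK1 and on to NF-kB, whereas TRIF, the product of Ticam1, serves TLR3 and endosomal TLR4 and also leads to interferon genes. Fibroblasts are known to express several of these receptors at low levels and to respond to lipopeptides and lipopolysaccharide.

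Promoter windows, from 250 bases before to 50 bases after an annotated start, were taken from RefSeq on the build GRCm38.p6 for 7 of the 10 genes (10 windows). No window was matched for Tlr4, Cd14 and Ly96. They were searched on both strands for the NF-kB consensus and for GAAANNGAA, the core of the interferon response element. The windows of Tlr2, Tlr3 and Myd88 are printed because they hold the matches among the genes discussed most below, from 250 bases before the start to 10 bases after it, with matches in capitals. All 3 lie on the minus strand, at chr3:83841599-83841858 for Tlr2, chr8:45410371-45410630 for Tlr3 and chr9:119340009-119340268 for Myd88.
Tlr2: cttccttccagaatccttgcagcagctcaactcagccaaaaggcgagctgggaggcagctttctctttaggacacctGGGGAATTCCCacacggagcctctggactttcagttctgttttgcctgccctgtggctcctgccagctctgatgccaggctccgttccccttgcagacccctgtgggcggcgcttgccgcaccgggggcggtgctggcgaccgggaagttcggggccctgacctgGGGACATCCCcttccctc
Tlr3: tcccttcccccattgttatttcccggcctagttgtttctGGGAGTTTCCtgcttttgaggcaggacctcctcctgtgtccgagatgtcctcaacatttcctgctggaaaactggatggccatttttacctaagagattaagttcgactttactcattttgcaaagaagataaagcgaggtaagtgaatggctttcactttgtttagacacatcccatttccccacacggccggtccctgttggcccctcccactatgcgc
Myd88: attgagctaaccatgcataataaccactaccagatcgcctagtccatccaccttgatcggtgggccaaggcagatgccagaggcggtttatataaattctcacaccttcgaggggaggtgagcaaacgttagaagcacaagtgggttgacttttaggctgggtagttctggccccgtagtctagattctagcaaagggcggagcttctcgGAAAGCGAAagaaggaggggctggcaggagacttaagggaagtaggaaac
In the Tlr2 window NF-kB matches began at positions -173, -172 and -8, where 0 is the start base and the matches at -173 and -172 overlap. The Tlr3 window held 1 NF-kB match, at -211, and the Myd88 window held 1 match to GAAANNGAA, at -40. A Tlr6 window, not shown, held GAAANNGAA at -115 and -109. The NF-kB consensus was thus present in 2 of 10 windows of these genes and in 4.51% of all 32851 windows, and GAAANNGAA in 2 of 10 and in 8.56%. A match describes letters only and does not show that a factor binds there.

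Across the 10 genes the library labelled G3 Terc-/- stood highest for 8 and wild type lowest for 9. The share of all symbols with these places was not computed. For Tlr6 the counting intervals of all 4 libraries overlapped, and Tlr1 rested on about 9.40 fragments or fewer. Leaving out Tlr1, listed at 0 in wild type, Tlr2, Cd14 and Tlr3 differed most relative to their levels. Myd88, Ticam1 and Irak1 differed little. Summed over Tlr1, Tlr2, Tlr3, Tlr4 and Tlr6, receptor expression came to 3.80 FPKM in the wild-type library, 4.20 in the library labelled Gadd45-/-, 12.3 in the library labelled G3 Terc-/- and 5.25 in the library labelled G3 dKO. The sum over Myd88 and Ticam1 was 23.2, 23.9, 28.4 and 27.0 FPKM. The adaptor transcripts were therefore the more abundant in every library, and the gap was smallest in the library labelled G3 Terc-/-.

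**Figure D1:**
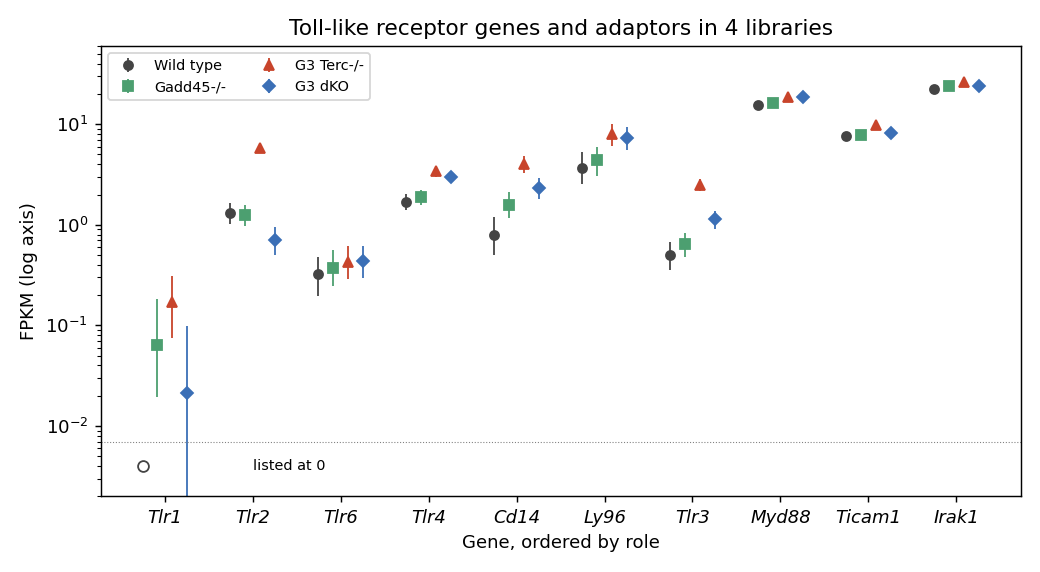
FPKM of the 10 genes (log axis) in each library, with 95% intervals that cover counting error only, and an open symbol for Tlr1, listed at 0 in wild type. Tlr2 at 5.83 FPKM, Cd14 at 3.998 and Tlr3 at 2.50 in the library labelled G3 Terc-/- lie above the other libraries, while Myd88, Ticam1 and Irak1 lie close together.

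The order of levels in wild type ran from Irak1 (22.6 FPKM) through Myd88, Ticam1, Ly96, Tlr4, Tlr2, Cd14, Tlr3 and Tlr6 to Tlr1, which was listed at 0. FPKM is scaled to transcript length, so these levels can be compared between genes. Counting intervals overlapped for 4 of the 9 neighbouring pairs in that order, all of them from Tlr4 down to Tlr6. In the library labelled G3 Terc-/- Tlr2 and Cd14 both stood above Tlr4, and in the library labelled G3 dKO Tlr2 came after Tlr3. Counting intervals overlapped for Cd14 and Tlr4 in the former and for Tlr3 and Tlr2 in the latter, so depth does not settle those places. Irak1, Myd88, Ticam1 and Ly96 kept the top 4 places in all 4 libraries.

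Differences were taken on the log2(FPKM + 1) scale, and a gene was called higher or lower when they reached 1 or -1, a 2-fold difference of FPKM + 1. Between the library labelled G3 Terc-/- and wild type 3 of the 10 genes were called higher, namely Tlr2, Cd14 and Tlr3, and none lower. Among all 22501 symbols compared, 5.7% were higher and 3.33% lower by the same rule, and among the 11592 with a mean of 1 FPKM or more 9.93% were higher. The median difference over the 10 genes was 0.53, beside 0 over all symbols. Of the 10 genes 8 had a mean of 1 FPKM or more, Tlr3 only through the library labelled G3 Terc-/- (0.757 FPKM without it). All 10 differences were above 0, as were 41.5% of those over all symbols and 50.4% at a mean of 1 FPKM or more, but that of Tlr6 was -0.080 after quantile normalization.

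In the library labelled G3 dKO 1 of 10, Tlr2, was called lower, and none higher, than in its G3 Terc-/- counterpart. The shares over all symbols were 2.79% lower and 0.853% higher, and 4.78% lower at a mean of 1 FPKM or more. The median difference was -0.17 and 8 of 10 differences were below 0, as were 43.7% over all symbols and 53.8% at a mean of 1 FPKM or more. Among the 8, Tlr4 and Ly96 lay within counting error, and Ly96 changed sign, to 0.0063, under quantile normalization. These comparisons share the library labelled G3 Terc-/-, so a gene high in that culture differs in both.

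The remaining comparisons gave no calls among the 10 genes. In the library labelled Gadd45-/- against wild type the background was 0.187% higher and 0.142% lower, and the median over the genes was 0.084. Against the library labelled Gadd45-/-, the library labelled G3 dKO had 1.33% of all symbols higher and 1.3% lower, with a median of 0.14 for the genes. Against wild type it had 2.03% higher and 1.56% lower, with a median of 0.19. Differences of the 10 genes in the library labelled Gadd45-/- against wild type ran from -0.043 (Tlr2) to 0.53 (Cd14).

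**Figure D2:**
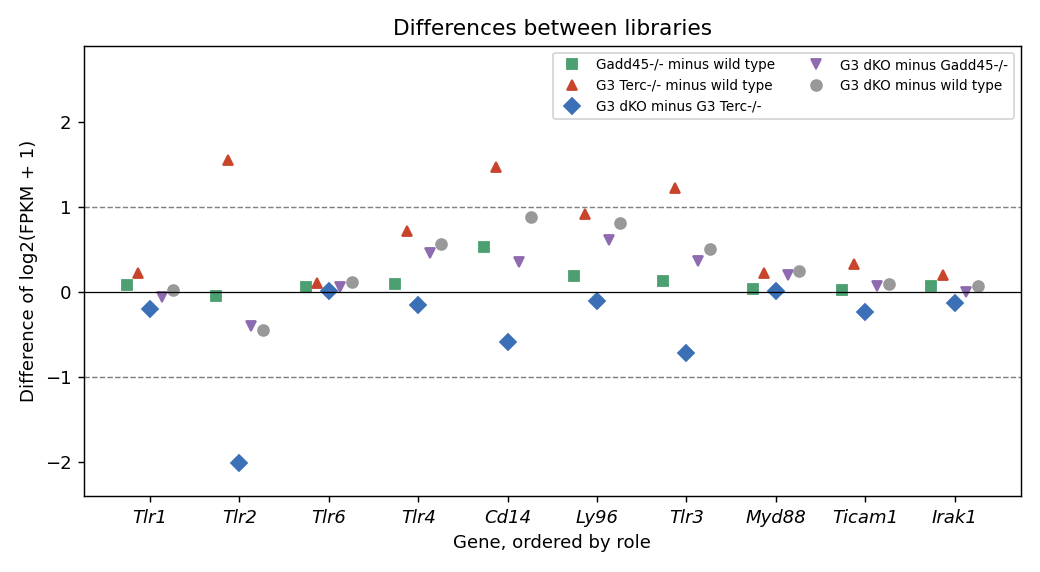
Differences of log2(FPKM + 1) for each gene in 5 comparisons, with dashed lines at 1 and -1. Tlr2 has a difference of 1.56 in G3 Terc-/- minus wild type and of -2.01 in G3 dKO minus G3 Terc-/-, and Myd88, Ticam1 and Irak1 lie between -0.23 and 0.33.

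Tlr2, the common partner in lipopeptide recognition, varied most on the log2(FPKM + 1) scale. It stood at 1.31 FPKM in the wild-type library, 1.25 in the library labelled Gadd45-/-, 5.83 in the library labelled G3 Terc-/- and 0.699 in the library labelled G3 dKO. Only the library labelled G3 Terc-/- was high, and the library labelled G3 dKO was the lowest of the 4. Relative to wild type the library labelled G3 Terc-/- had 4.44 times as much, with a 95% interval of 3.42 to 5.82 from estimated fragments. All such intervals are exact (Clopper-Pearson) and cover counting error only, not variation between cultures. The ratio of G3 dKO to G3 Terc-/- was 0.120 (0.0839 to 0.168), and that of G3 dKO to wild type 0.532 (0.351 to 0.798).

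Its partner genes had lower levels in every library. Tlr6, which forms the TLR2 dimer for diacylated lipopeptides, had 0.321, 0.376, 0.423 and 0.439 FPKM, the libraries being ordered as for Tlr2. For Tlr6 the ratio of G3 Terc-/- to wild type was 1.32 (0.753 to 2.52), so no difference was detectable at this depth. Tlr1, the partner for triacylated lipopeptides, was listed at 0 in wild type, at 0.0635 and 0.172 FPKM in the libraries labelled Gadd45-/- and G3 Terc-/-, and at 0.0212 in the library labelled G3 dKO. Against a floor of 3 fragments in wild type (0.0553 FPKM), the level of Tlr1 in the library labelled G3 Terc-/- was 3.10 times that floor, and with counting error in both libraries the 95% interval of the ratio began at 1.95. The ratio of G3 dKO to G3 Terc-/- for Tlr1, which rests on about 1.19 and 9.40 fragments, was 0.124 (0.00248 to 0.786), an interval that includes the ratio of Tlr2. Tlr1 and Tlr6 are close copies of each other, and a fragment from a shared stretch could be credited to either, so their values are uncertain. The excess of Tlr2 over Tlr6 was 4.10-fold in wild type, 3.31-fold in the library labelled Gadd45-/-, 13.8-fold in the library labelled G3 Terc-/- and 1.59-fold in the library labelled G3 dKO.

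The genes of the lipopolysaccharide receptor were higher in both G3 libraries than in either of the others. For Cd14 the excess of G3 dKO over Gadd45-/- lay within counting error. Tlr4, the signalling receptor, stood at 1.67 FPKM in the wild-type library, 1.87 in the library labelled Gadd45-/-, 3.40 in the library labelled G3 Terc-/- and 2.96 in the library labelled G3 dKO. Ly96, whose product MD-2 forms the lipid-binding pocket, stood at 3.70, 4.39, 7.90 and 7.28 FPKM. For both genes the G3 libraries lay together above the other pair. Ratios of G3 Terc-/- to wild type were 2.03 (1.62 to 2.52) for Tlr4 and 2.14 (1.36 to 3.34) for Ly96. The differences on the log2(FPKM + 1) scale, 0.72 and 0.92, fell short of the size rule. The ratio of Ly96 to Tlr4 varied little, from 2.21 to 2.46 over the 4 libraries.

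Between the G3 libraries Tlr4 and Ly96 differed by no more than counting error. The ratios of G3 dKO to G3 Terc-/- were 0.871 (0.726 to 1.05) for Tlr4 and 0.922 (0.640 to 1.32) for Ly96. Tlr2, by contrast, differed 8.34-fold between its highest and lowest library, and those were the G3 libraries. Whether Tlr2 and Tlr4 truly differ in this respect could not be tested with 1 library per genotype. The ratio of Tlr2 to Tlr4 was 0.785 in wild type, 0.667 in the library labelled Gadd45-/-, 1.72 in the library labelled G3 Terc-/- and 0.236 in the library labelled G3 dKO.

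Cd14, the co-receptor that hands lipopolysaccharide to MD-2 and also assists TLR2, stood at 0.792, 1.59, 3.998 and 2.33 FPKM. Wild type was the lowest and the library labelled G3 Terc-/- the highest, with the library labelled G3 dKO between that and the library labelled Gadd45-/-. The ratio of G3 Terc-/- to wild type for Cd14 was 5.05 (3.17 to 8.36), and that of Gadd45-/- to wild type was 2.003 (1.17 to 3.49). Between the G3 libraries the ratio, G3 dKO to G3 Terc-/-, was 0.582 (0.419 to 0.790). The ratio of G3 dKO to Gadd45-/- was 1.465 (0.984 to 2.18), an interval that includes 1. With the library labelled Gadd45-/- as the control in place of wild type, a choice made after seeing the data, Cd14 had a difference of 0.95 and was no longer called, while Tlr2 (1.60) and Tlr3 (1.09) were.

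Tlr3, the endosomal sensor of double-stranded RNA, stood at 0.497 FPKM in the wild-type library, 0.643 in the library labelled Gadd45-/-, 2.50 in the library labelled G3 Terc-/- and 1.13 in the library labelled G3 dKO. The library labelled G3 Terc-/- was again highest, and the library labelled G3 dKO stood above both libraries that are not G3. For Tlr3 the ratio of G3 Terc-/- to wild type was 5.02 (3.58 to 7.27), that of G3 dKO to G3 Terc-/- 0.453 (0.3498 to 0.579), and that of G3 dKO to wild type 2.28 (1.56 to 3.39). The difference of Tlr3 between G3 Terc-/- and wild type, 1.22, was 0.999 after quantile normalization, just short of the size rule. In GENCODE M21 the gene Gm45542 overlaps Tlr3 on the opposite strand, so without knowing the strand setting the value of Tlr3 is uncertain.

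Macrophages express Cd14 and the Toll-like receptors strongly, so 19 macrophage markers were examined. Their summed level was 7.12 FPKM in the wild-type library, 9.04 in the library labelled Gadd45-/-, 6.27 in the library labelled G3 Terc-/- and 27.0 in the library labelled G3 dKO. In the library labelled G3 Terc-/-, where Tlr2, Cd14 and Tlr3 were highest, 6 of the 19 were listed at 0, namely the complement genes C1qa, C1qb and C1qc, the signalling adaptor Tyrobp, Aif1 and Cd52, beside 1 at 0 in wild type and 3 in the library labelled Gadd45-/-. In the library labelled G3 Terc-/- 14 of the 19 were lower than in wild type and 5 higher, among them Csf1r (0.363 to 0.828 FPKM), Cd68 (1.72 to 2.21) and Lyz2 (2.101 to 2.44). Over all symbols 35.2% were lower in that comparison, and 49.6% at a mean of 1 FPKM or more. Only 2 of the 19 markers had such a mean. The pan-leukocyte gene Ptprc (CD45) had 0.01005 FPKM in the library labelled G3 Terc-/-. The library labelled G3 dKO held 17 of 19 at their highest level, a place whose share over all symbols was not computed. Lyz2 stood there at 11.5 FPKM, C1qa at 2.17 and Tyrobp at 1.52, and none was listed at 0. In the library labelled Gadd45-/-, where Cd14 was 2.003 times its wild-type level, 10 of the 19 were higher than in wild type and 8 lower. Over all symbols 31.7% were higher and 42.4% lower. C1qa stood at 0.855 against 0.292 FPKM and Aif1 at 0 against 0.153. The part of these cells in the Tlr4, Ly96, Cd14 and Tlr3 levels of those libraries was not tested. In bulk RNA, fewer cells of a type and less RNA per cell cannot be told apart.

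**Figure D3:**
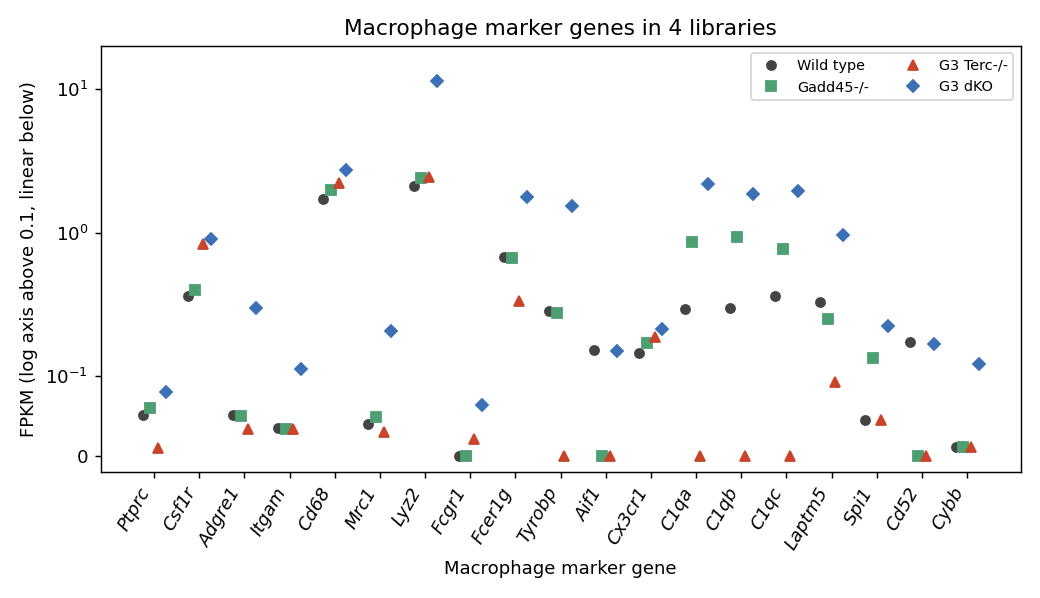
FPKM of 19 macrophage markers in each library (log axis above 0.1, linear below). The library labelled G3 Terc-/- lies at 0 for Tyrobp, C1qa, C1qb and C1qc, and the library labelled G3 dKO is highest for 17 of 19.

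The shared adaptors and the kinase lay within a narrow range. Myd88 stood at 15.6, 16.2, 18.5 and 18.7 FPKM, Ticam1 at 7.61, 7.79, 9.84 and 8.24, and Irak1 at 22.6, 23.9, 26.2 and 23.9. Ratios of G3 Terc-/- to wild type were 1.19 (1.06 to 1.33) for Myd88, 1.29 (1.13 to 1.47) for Ticam1 and 1.16 (1.08 to 1.24) for Irak1. These small ratios exceed counting error, but how far cultures of 1 genotype differ was not measured. In the GENCODE M21 annotation Myd88 overlaps Acaa1a on the opposite strand (18.5, 17.1, 32.7 and 26.7 FPKM), and the use of strand was not given in the sources used here, so its value is uncertain. Irak1 lies on the X chromosome, and in the library labelled Gadd45-/-, the one with Y-linked transcripts, its ratio to wild type was 1.06 (0.988 to 1.13).

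**Figure D4:**
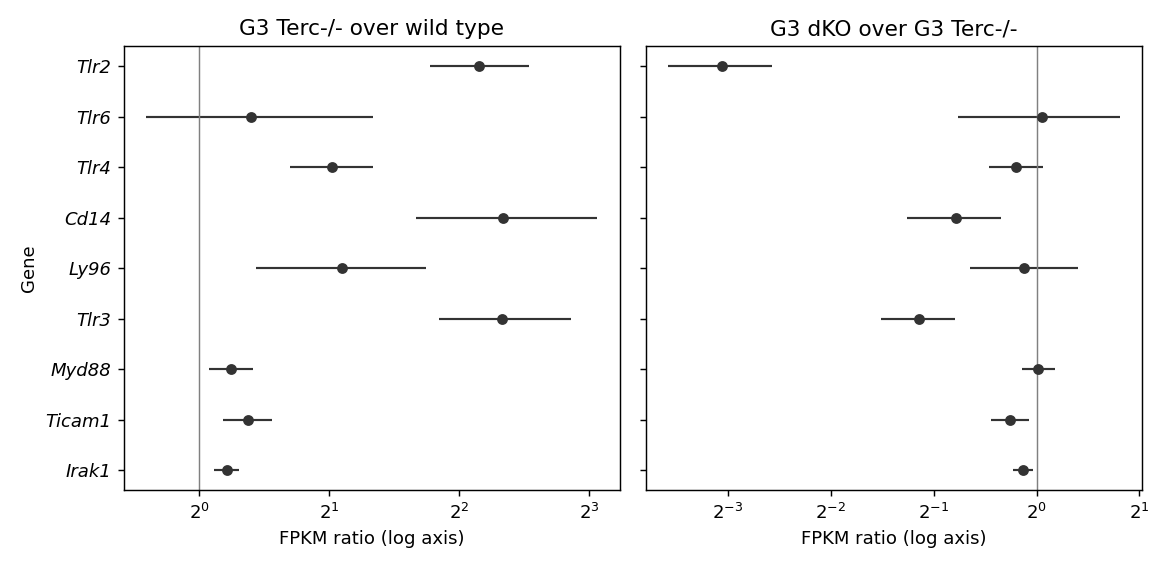
FPKM ratios (log axis) of G3 Terc-/- over wild type and of G3 dKO over G3 Terc-/- for 9 genes, leaving out Tlr1, with 95% intervals that cover counting error only. Tlr2, Cd14 and Tlr3 have ratios of 4.44, 5.05 and 5.02 on the left, where the interval of Tlr6 spans 1. On the right Tlr2 stands at 0.120, and the intervals of Tlr6, Tlr4, Ly96 and Myd88 span 1.

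The difference between the Gadd45a comparisons in G3 and in Terc-proficient cells (G3 dKO minus G3 Terc-/-, less Gadd45-/- minus wild type) was negative for all 10 genes, as for 41.4% of all symbols and 50.3% at a mean of 1 FPKM or more. Under size factors Myd88 was at 0.014, and under quantile normalization Myd88 (0.051) and Tlr6 (0.053) were above 0. The difference was largest for Tlr2 (-1.96), Cd14 (-1.12) and Tlr3 (-0.85) and ran from -0.30 to -0.030 for the other 7. All 4 libraries enter this value once, and it has no error estimate.

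Of 12 fibroblast markers 8 were lowest in the library labelled G3 Terc-/-. Markers of other blood cells gave little signal. All 8 lymphocyte markers were below 1 FPKM, with summed levels of 0.115 to 0.385 FPKM, and of 7 neutrophil and mast cell markers only S100a8 reached 1 FPKM, at 2.96 in the library labelled G3 Terc-/- and at 0 in the others. S100a9, its usual partner, was listed at 0 in every library. Endothelial markers summed to 1.43 to 2.49 FPKM with none of 7 at 1 FPKM. Of 6 epithelial markers only the keratin Krt19 reached 1 FPKM, at 7.37 to 15.9.

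Among the other Toll-like receptors Tlr5, the flagellin receptor, was the only one with a mean of 1 FPKM or more, which it reached only through the library labelled G3 Terc-/- (0.823 without it). It stood at 0.564, 0.902, 4.11 and 1.00 FPKM, and the ratio of G3 Terc-/- to wild type was 7.29 (5.10 to 11.1). Like Tlr2 it was highest in the library labelled G3 Terc-/-, and its ratio of G3 dKO to G3 Terc-/- was 0.244 (0.182 to 0.328). The endosomal nucleic acid receptors Tlr7 (0.0429 to 0.0707 FPKM), Tlr9 (0 to 0.0310) and Tlr13 (0.0131 to 0.0526) rested on about 5.18 fragments or fewer per library. Tlr8 and Tlr11 were listed at 0 in all 4 libraries, and Tlr12 in 3 of them. For Tlr8 and Tlr11 a floor of 3 fragments allows levels of up to 0.0484 and 0.0520 FPKM.

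Accessory proteins included some of the larger differences. Of 9 listed, 5 had a mean of 1 FPKM or more, and 2 of these were called higher in G3 Terc-/- against wild type and lower in G3 dKO against G3 Terc-/-, beside 9.93% and 4.78% of all symbols so filtered. Lbp passed that filter only through the library where it was high, so its calls follow from the filter. Lbp, the plasma protein that extracts lipopolysaccharide for CD14, stood at 0.0883, 0.0862, 7.03 and 0.367 FPKM. Unc93b1, the chaperone that carries TLR3 and other nucleic acid receptors to endosomes, stood at 8.05, 7.72, 27.9 and 12.0 FPKM. The receptor chaperone Hsp90b1 (555, 520, 432 and 432 FPKM) and Rnf170, a ubiquitin ligase (4.28, 4.54, 5.19 and 4.09 FPKM), were not called. Of the other adaptors Tirap, the bridge between TLR2 or TLR4 and MyD88, stood at 4.34, 4.94, 4.69 and 5.26 FPKM. Ticam2 (0.0166 to 0.0491), Sarm1 (0.0846 to 0.238) and Pik3ap1 (0.0210 to 0.0624) stood far below it.

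Downstream of the adaptors most kinase genes differed little. Of 18 kinase and ubiquitin genes, all with a mean of 1 FPKM or more, 2 were called higher in G3 Terc-/- against wild type and the same 2 lower in G3 dKO against G3 Terc-/-, with a median of 0.10 in the first comparison. As 9.93% of all symbols so filtered were called higher, the first count is near the background. In the second comparison 4.78% of them were called lower. Ikbke, a kinase of the interferon arm, stood at 3.42, 3.10, 19.5 and 5.72 FPKM, and Map3k8, a kinase upstream of ERK, at 0.845, 0.695, 8.43 and 2.37 FPKM. Irak2 (8.13, 8.43, 11.8 and 13.6 FPKM), which acts beside IRAK1, and the NF-kB kinase subunit Ikbkg (6.01, 6.19, 10.2 and 6.68 FPKM), were not called.

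Among 11 transcription factors 2 were called higher in G3 Terc-/- against wild type, Irf7 (2.88, 3.66, 110 and 6.46 FPKM) and Irf5 (1.16, 1.29, 3.33 and 2.30 FPKM), both mediators of receptor-driven interferon and cytokine genes, beside the 9.93% of all symbols so filtered. The NF-kB subunits Nfkb1 (20.9, 20.9, 28.7 and 16.5 FPKM) and Relb (7.11, 7.85, 12.9 and 6.23 FPKM) were not called. The difference of Irf5, 1.002, was 0.96 under size factors and 0.77 under quantile normalization, short of the size rule. Irf7 alone was called lower in G3 dKO against G3 Terc-/-, beside 4.78% of all symbols so filtered.

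Inhibitors of the pathway included genes called in both directions. Of 14 with a mean of 1 FPKM or more, 4 were higher and 1 lower in G3 Terc-/- against wild type, and 4 (Nfkbia, Tnfaip3, Zc3h12a and Il1rl1) were lower in G3 dKO against G3 Terc-/-. Over all symbols so filtered 9.93% were higher and 6.25% lower in the first comparison and 4.78% lower in the second. Nfkbia, which encodes the NF-kB inhibitor IkB alpha, stood at 8.72, 9.06, 53.8 and 9.15 FPKM. Tnfaip3, the ubiquitin-editing enzyme A20, stood at 1.09, 1.59, 9.96 and 0.915 FPKM, and Zc3h12a, an RNase acting on cytokine messages, at 3.37, 3.31, 23.1 and 3.10 FPKM. Like Tlr2, these 3 genes were high in the library labelled G3 Terc-/- alone. Irak3, an IRAK family member that restrains signalling, stood at 1.76, 2.06, 7.11 and 3.68 FPKM. The lower gene was Atf3, a stress-induced repressor (4.51, 2.37, 1.03 and 1.05 FPKM), named after its value was seen.

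Genes that receptor signalling induces were mostly highest in the library labelled G3 Terc-/-, namely 16 of 18 NF-kB output genes and 13 of 14 interferon output genes. All 13 NF-kB output genes with a mean of 1 FPKM or more were called higher in G3 Terc-/- against wild type (median 4.19) and lower in G3 dKO against G3 Terc-/- (median -3.98). Of 12 interferon output genes 12 were called higher (median 3.72) and 11 then lower (median -3.29), the exception being Irf9 (-0.78). Over all symbols so filtered 9.93% were higher in the first comparison (median 0.0059) and 4.78% lower in the second (median -0.031). The difference of Ifit2 in the first comparison fell just short of the rule under size factors (0.991) and quantile normalization (0.982). Of these, 4 NF-kB and 1 interferon output genes pass the filter only through the library labelled G3 Terc-/-, and the lists were chosen with this pattern known, so the counts are a description. Saa3, an acute-phase protein and the largest, stood at 9.55, 9.95, 5800 and 8.74 FPKM, and Usp18, an interferon-induced protease, at 2.22, 3.99, 69.6 and 5.69 FPKM. The transcripts of the cytokines Tnf, Il1b and Ifnb1 stood at 0.0895 FPKM or less in every library.

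**Figure D5:**
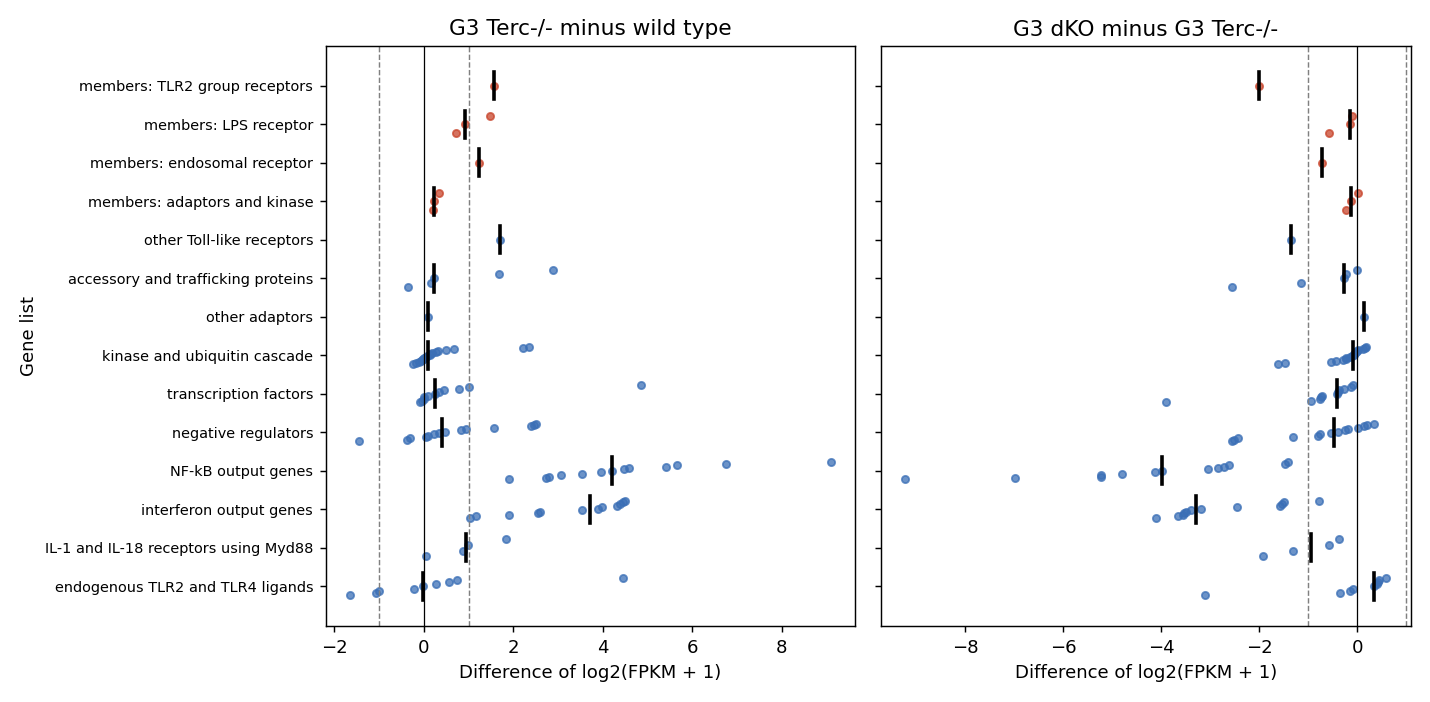
Differences of log2(FPKM + 1) for each gene with a mean of 1 FPKM or more, by list, in 2 comparisons, with the median of each list as a black bar and dashed lines at 1 and -1. Most adaptor and kinase genes lie near 0, and the NF-kB and interferon output genes have medians of 4.19 and 3.72 on the left.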

How the data were processed

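Per the labels' protocols, polyadenylated RNA of primary embryonic fibroblasts was sequenced after random priming. The authors deposited FPKM values, 1 per gene symbol and library. TopHat2 2.1.1, Cufflinks 2.2.1 and mm9 are named in the submitters' processing notes, without roles. The annotation, strand setting and filters are not given in those sources. Because FPKM is relative to a library's total, very abundant transcripts depress the values of the rest.

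Differences of log2(FPKM + 1) were computed for 22501 symbols, leaving out 734 of short non-coding RNA, with Python 3.11.15 and pandas 2.3.3. No test was run, since no genotype had a second library. Depth was estimated from whole-fragment steps of values up to 0.05 FPKM in single-transcript genes of 1500 to 8000 nt (GENCODE M21 lengths less 200 nt). Between 77.7% and 82.8% of these lay within 0.1 of a whole fragment, but they also set the estimate. The functions were tested on simulated data. Ratio intervals use rounded fragments (scipy 1.17.1).

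The genes and lists were chosen with earlier results of these data known. Named genes are the 10, all other Toll-like receptors and adaptors, and up to 4 per list by the size of G3 Terc-/- minus wild type among those with a mean of 1 FPKM or more; others were named after their values were seen. All but 1 list symbol (Ly6g) were matched. Some older names were used, such as Sfpi1 for Spi1.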

Additional observations from a re-analysis of the deposited data

How the results depend on the processing

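Over the 10 genes and 5 comparisons, no called difference changed sign under another pseudocount, size factors or quantile normalization. Under size factors 50 of 50 differences kept their side of the size rule, and 49 of 50 did with quantile normalization. Among differences not called, 1 changed sign under size factors and 3 under quantile normalization. With a pseudocount of 0.1 FPKM 44 of 50 differences kept their side of the size rule. The calls then became 5 higher for G3 Terc-/- against wild type and 3 lower for G3 dKO against G3 Terc-/-. For G3 dKO against wild type 2 were higher. A pseudocount of 0.5 FPKM gave 1 higher in the last of these. The lower pseudocount gives low genes such as Tlr1 (1.44 for G3 Terc-/- against wild type) more weight. With a size rule of 0.5 the calls were 1 higher for Gadd45-/- against wild type, 5 higher for G3 Terc-/- against wild type, 3 lower for G3 dKO against G3 Terc-/-, 1 higher for G3 dKO against Gadd45-/- and 4 higher for G3 dKO against wild type. Size factors lay between 0.980 and 1.04. With the library labelled Gadd45-/- as control 2 genes were called higher. No replicate could be left out, and no paired analysis was possible because each genotype had 1 library. Depth limits Tlr1 and Tlr6, where 30.2 estimated fragments or fewer lay behind each value. It also limits Cd14 and Ly96 in wild type, at about 21.9 and 30.7 fragments, and so their ratios to wild type.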

Other observations

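The interleukin-1 and interleukin-18 receptors also signal through MyD88 and IRAK1. Il1rap, the shared signalling chain of interleukin-1 receptors, stood at 7.505 FPKM in the wild-type library and 8.30 in the library labelled Gadd45-/-. It stood at 29.5 in the library labelled G3 Terc-/- and 7.04 in the library labelled G3 dKO. Of 6 receptor genes listed, 4 had a mean of 1 FPKM or more. Among these 4, Il1rap alone was called higher in G3 Terc-/- against wild type, beside 9.93% of all symbols so filtered. Il1r1, the binding chain, stood at 11.8, 13.2, 22.7 and 17.3 FPKM, and Il18rap, the accessory chain for interleukin-18, at 1.75, 1.49, 4.43 and 2.64 FPKM. Il1rl1, the interleukin-33 receptor, which is also in the list of inhibitors, stood at 84.8, 147, 88.2 and 35.2 FPKM and was highest in the library labelled Gadd45-/-. It and Il1rap were called lower in G3 dKO against G3 Terc-/-, beside 4.78% of all symbols so filtered.

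Proteins released from matrix or damaged cells that TLR2 and TLR4 are reported to bind did not move one way. Of 9 with a mean of 1 FPKM or more, 1 was called higher and 3 lower in G3 Terc-/- against wild type. Over all symbols so filtered 9.93% were higher and 6.25% lower. Under quantile normalization Bgn (1.005) was called higher too. The proteoglycan decorin, Dcn, stood at 25.6, 28.2, 584 and 67.0 FPKM. The chromatin protein gene Hmgb1 stood at 162, 143, 50.7 and 76.9 FPKM, the mitochondrial chaperone Hspd1 at 223, 212, 105 and 133 FPKM, and the lectin Lgals3 at 92.1, 114, 45.2 and 60.1 FPKM.

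The symbols outside the 10 whose profile over the 4 libraries lay closest to that of Tlr2, by the Euclidean distance of centred log2(FPKM + 1), were H2-M3, Prl3a1, Tfec, Stmn2 and Ugt1a6b, at distances of 0.15 to 0.20. H2-M3 stood at 2.27, 2.34, 8.38 and 1.68 FPKM, and Tlr5 lay at a distance of 0.60. Only symbols with a mean of 1 FPKM or more were searched. Prl3a1, Tfec and Ugt1a6b stood below 1 FPKM outside the library labelled G3 Terc-/-, so they passed only through it. Stmn2 stood at 1.02, 1.18, 5.19 and 0.737 FPKM. The likeness thus follows in part from the filter, and with 4 points it is a description of these libraries.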
